A study of Mus musculus with 4 samples.

Results

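Endoderm and liver transcription factors were followed in mouse cultures differentiated towards cardiomyocytes with or without the TFIID subunit gene *Taf4a*. The genes are 8, chosen by name, *Hnf4a*, *Hnf4g*, *Foxa1*, *Foxa2*, *Foxa3*, *Sox17*, *Sox7* and *Nr1h4*, and were looked up by symbol in a table of 24637 genes. The table used here gave 7 of the 8, and *Hnf4g* was not analysed here. Messenger RNA was sequenced from 4 libraries, 2 from WT (Taf4+/+) and 2 from Taf4a-/- lines of embryonic stem cells (ESCs), each grown for 5 days as embryoid bodies in serum and then for 9 days on gelatin-coated plates. The ESCs were derived from blastocysts of crosses between Taf4a+/- mice and kept on feeder fibroblasts before differentiation. Each genotype was represented by 2 lines. The p-values from limma below combine a gene's spread between lines (2 degrees of freedom) with the spread of other genes of similar level (4.17). The null allele lacks part of the gene in every cell of a line, and the labels name no agent that differs between the genotypes. The values are normalized counts, that is, reads per gene divided by a size factor per library.

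The libraries held from 21732746 to 27733034 reads on genes. *Taf4a* itself (ENSMUSG00000039117) had 889 and 678 normalized counts in the WT lines and 1722 and 1799 in the lines labelled Taf4a-/-. The gene-level count was called higher there (log2 fold change 1.18, adjusted p = 0.00569 from limma). The count covers all exons together and does not show the deleted ones, and genotypes are those of the labels. The Y-linked gene *Eif2s3y* had 1688 and 0 normalized counts in replicates 1 and 2 of WT, against 309 and 0 in the lines labelled Taf4a-/- replicates 1 and 2. The lines of a genotype were therefore not alike in Y-linked RNA. The samples are labelled as cardiac cells, and all 8 cardiomyocyte markers examined were detected in every library and were lower in the lines labelled Taf4a-/-. The summed level of these markers was 20315 and 22211 normalized counts in WT against 1551 and 1761. All 8 macrophage markers were lower as well, with sums of 9098 and 10980 normalized counts against 179 and 202, whereas 7 of 8 pluripotency markers were higher. By the test described below, 17.3% of all tested genes were called lower and 11.3% higher. *C1qa*, *C1qb*, *C1qc*, *Cx3cr1*, *Ptprc* and *Tyrobp* reached the mean of 10 required for testing only through WT. A call of lower was nearly fixed for these macrophage markers.

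Endoderm gives rise to the gut, liver, lung and pancreas, and its extraembryonic branch, the visceral endoderm, forms the outer layer of the yolk sac and secretes plasma proteins much as the fetal liver does. FoxA proteins are forkhead factors that can bind their sites in compact chromatin and open the way for other regulators. Hnf4a is a nuclear receptor that maintains the gene programme of hepatocytes and visceral endoderm, while Sox7 and Sox17 belong to the SoxF group, which acts in primitive and definitive endoderm and also in endothelium.

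Start regions of *Hnf4a*, *Foxa1* and *Foxa3*, which were called lower, are shown first, because these factors are known to act on one another's promoters. RefSeq promoters (from the assembly GRCm38.p6) were found for 5 of the 7 genes, not for *Sox17* or *Sox7*. They gave 8 start regions in all, and each matched NCBIM37, the build of the files, at exactly 1 place. Those of *Foxa2*, also called lower, are described but not printed. Each window runs from 220 bases before to 30 bases after the start site, 5′ to 3′ on the strand of the gene. *Hnf4a* lies on the plus strand, and the upstream of its 2 starts is shown (chr2:163332373-163332622); the other lies 40347 bases into the annotated gene. *Foxa1* (chr12:58647069-58647318) and *Foxa3* (chr7:19608859-19609108) lie on the minus strand. Capitals mark matches, on either strand, to 6 searched words. The forkhead words were TGTTTAC or, as a variant, TGTTTGC. The nuclear receptor word for Hnf4a was CAAAGTC, and the word for Sox factors was ACAATGG. The last words were AGATAA, bound by Gata factors, and the TATA box as TATAAA. No match overlapped another.
Hnf4a upstream start: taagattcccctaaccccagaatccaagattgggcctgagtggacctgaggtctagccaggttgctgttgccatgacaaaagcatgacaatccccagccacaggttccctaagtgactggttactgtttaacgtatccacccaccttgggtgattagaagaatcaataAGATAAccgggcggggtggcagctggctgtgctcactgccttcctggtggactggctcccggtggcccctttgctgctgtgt
Foxa1 start: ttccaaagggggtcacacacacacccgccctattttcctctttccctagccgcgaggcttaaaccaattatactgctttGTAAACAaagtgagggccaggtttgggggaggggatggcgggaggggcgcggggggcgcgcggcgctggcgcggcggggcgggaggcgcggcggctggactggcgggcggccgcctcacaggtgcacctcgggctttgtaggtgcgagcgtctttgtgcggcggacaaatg
Foxa3 start: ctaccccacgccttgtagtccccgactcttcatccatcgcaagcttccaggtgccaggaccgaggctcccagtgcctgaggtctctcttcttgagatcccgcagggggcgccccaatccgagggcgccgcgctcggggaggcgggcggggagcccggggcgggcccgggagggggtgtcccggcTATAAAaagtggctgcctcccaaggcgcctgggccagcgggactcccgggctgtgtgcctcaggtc

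The capitals in the upstream *Hnf4a* start are a Gata word, which 9.52% of the 32851 RefSeq promoters held in a window of the same length. The downstream start held none of the 6 words. The *Foxa1* window held 1 forkhead word (TGTTTAC, 3.08% of all promoters), read on the other strand, 141 bases before the start. The *Foxa3* window held a TATA box 36 bases before the start, a word found somewhere in the window of 11.7% of promoters. Of the 3 *Foxa2* starts, 1 held a Gata and a TATA word and 2 held none of the 6 words. The *Nr1h4* window held a Gata word. No window of the 8 held the Hnf4a word (3.76% of all promoters), the Sox word (3.08%) or the other forkhead word, TGTTTGC (4.16%). These are matches of letters within a short window and do not show binding.

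*Hnf4a* and all 3 FoxA genes were lower in the lines labelled Taf4a-/-, whereas no change was detected for either SoxF gene. The fall was about 10-fold for *Hnf4a* and between 2-fold and 3-fold for the FoxA genes. A mean of 10 normalized counts or more was required, and genes were compared with limma on log2(normalized count + 1), and called at a Benjamini-Hochberg adjusted p under 0.05. The test covered 6 of the 7 genes, of which 4 were lower and 0 higher, against 17.3% of all 16926 tested genes called lower, 11.3% called higher and 28.6% called in either direction. limma's voom on the recovered reads likewise called 4 lower and 0 higher, and at an unadjusted p under 0.05 the count was also 4 and 0. Both lines labelled Taf4a-/- lay below both WT libraries for 5 of the 7 genes, or 4 of the 6 tested, while 36.6% of all tested genes were lower and 34.5% higher without overlap. The median log2 fold change was -1.26 over the 6 genes and -0.012 over all tested genes. In these mixed cultures, fewer cells that express a factor and less of its RNA per cell cannot be told apart.

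**Figure D1:**
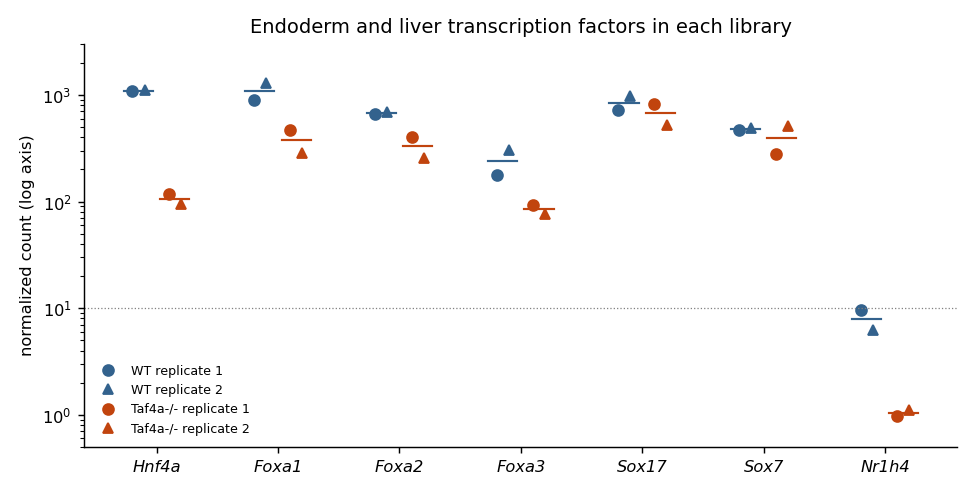
Normalized counts (log axis) of the 7 genes in each of the 4 libraries, with WT in blue, the lines labelled Taf4a-/- in orange, replicate 1 as circles, replicate 2 as triangles and horizontal bars at the genotype means. The dotted line marks the minimum mean of 10 for testing, and Hnf4a, the FoxA genes and Nr1h4 show no overlap between genotypes, whereas Sox17 and Sox7 do.

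*Hnf4a* (ENSMUSG00000017950, plus strand, chr2:163332544-163398646) had 1077 and 1118 normalized counts in the WT lines, replicates 1 and 2. It had 117 and 95.1 in the lines labelled Taf4a-/- replicates 1 and 2. The WT lines lay close together, and both stood far above the other lines. The means were 1098 ± 28.7 and 106 ± 15.8 (SD, n = 2 each), a 10.3-fold fall, or -3.36 as a log2 fold change (standard error 0.18, 95% interval -3.81 to -2.92, adjusted p = 0.000635 from limma). This was the only member past an adjusted p of 0.01, and it was called lower with any one of the 4 libraries left out. *Hnf4a* overlaps *0610008F07Rik* on the other strand over 34913 bases, and that gene had at most 1 read in any library.

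The FoxA genes, which act before and beside Hnf4a in foregut and liver, had smaller log2 fold changes. *Foxa1* (ENSMUSG00000035451, minus strand, chr12:58641618-58647108) had 887 and 1282 normalized counts in the WT lines and 471 and 282 in the lines labelled Taf4a-/-. The genotypes did not overlap, although the lines within each genotype differed. Its log2 fold change was -1.55, with a standard error of 0.29 (adjusted p = 0.0144 from limma), a 2.88-fold difference of means.

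*Foxa2* (ENSMUSG00000037025, minus strand, chr2:147868613-147872705), which is also a gene of node, notochord and floor plate, had 658 and 695 normalized counts in the WT lines and 404 and 257 in the lines labelled Taf4a-/-. The WT lines were nearly equal and both higher. Its log2 fold change was -1.07, with a standard error of 0.24 (adjusted p = 0.0231 from limma), the smallest fall of the 4 called genes. *Foxa3* (ENSMUSG00000040891, minus strand, chr7:19598631-19608887), expressed in liver and gut, had 177 and 307 normalized counts in the WT lines and 93.0 and 76.3 in the lines labelled Taf4a-/-. Here the WT lines differed more than the others, without overlap between genotypes. Its log2 fold change was -1.46, with a standard error of 0.32 (adjusted p = 0.0229 from limma).

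The FoxA calls depended on which line was left out. Without replicate 1 of the lines labelled Taf4a-/- all 3 FoxA genes were still called lower. Without WT replicate 2 none of the 3 passed (adjusted p = 0.0856 for *Foxa1*, 0.107 for *Foxa2* and 0.0822 for *Foxa3* from limma), and only 1 of the tested genes, *Hnf4a*, remained called. Without replicate 2 of the lines labelled Taf4a-/-, *Hnf4a* and *Foxa1* remained, and without WT replicate 1 *Foxa2* was lost while *Foxa1* and *Foxa3* remained.

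No change was detected in the SoxF genes. *Sox17* (ENSMUSG00000025902, minus strand, chr1:4481009-4486494), a factor of definitive and visceral endoderm and of arterial endothelium, had 715 and 976 normalized counts in the WT lines and 824 and 526 in the lines labelled Taf4a-/-. The genotypes overlapped, with 1 line labelled Taf4a-/- between the WT lines. The log2 fold change was -0.34, with a standard error of 0.26 (adjusted p = 0.352 from limma), and its 95% interval of -0.97 to 0.29 leaves room for a fall almost as large as that of *Foxa2*.

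*Sox7* (ENSMUSG00000063060, plus strand, chr14:64562511-64569569), a factor of primitive and parietal endoderm and of endothelium, had 466 and 494 normalized counts in the WT lines and 276 and 510 in the lines labelled Taf4a-/-. One line labelled Taf4a-/- was above both WT lines and the other below both. The log2 fold change was -0.35, with a standard error of 0.29 (95% interval -1.07 to 0.36, adjusted p = 0.397 from limma). Without replicate 1 of the lines labelled Taf4a-/- it was 0.088, on the other side of 0.

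*Nr1h4* (ENSMUSG00000047638, minus strand, chr10:88916979-88996330), which encodes the bile acid receptor FXR, was near the limit of detection. It had 11 and 6 reads in WT and 1 read in each line labelled Taf4a-/-, which is 9.64 and 6.23 normalized counts against 0.979 and 1.11. Both WT values were higher, but the gene was under the minimum mean and was not tested. The 17 WT reads against 2 reads gave a ratio of 7.78 after scaling, with an exact binomial 95% interval of 1.85 to 69.5 that covers counting error only.

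Levels were then set side by side per kilobase of annotated exon, since the genes differ in length. In WT, normalized counts per kilobase were 340 ± 87.6 for *Foxa1*, 286 ± 11.0 for *Foxa2*, 268 ± 58.4 for *Sox17*, 219 ± 5.71 for *Hnf4a*, 146 ± 5.82 for *Sox7*, 119 ± 44.9 for *Foxa3* and 3.45 ± 1.05 for *Nr1h4* (SD, n = 2 each). *Foxa1*, *Foxa2* and *Sox17* overlapped each other in this order, as did *Sox7* and *Foxa3*, while *Hnf4a* lay apart from its neighbours. In the lines labelled Taf4a-/- the levels per kilobase were 214 ± 66.8 for *Sox17*, 139 ± 44.1 for *Foxa2*, 119 ± 50.1 for *Sox7*, 118 ± 41.9 for *Foxa1*, 41.5 ± 5.79 for *Foxa3*, 21.2 ± 3.15 for *Hnf4a* and 0.453 ± 0.0390 for *Nr1h4* (SD, n = 2 each). There the first 4 genes overlapped from one to the next, and *Hnf4a* had moved below *Foxa3* without overlap.

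The unequal falls show in the ratios of the genes within a library. *Hnf4a* per *Foxa2*, in normalized counts, was 1.64 and 1.61 in the WT lines and 0.291 and 0.371 in the lines labelled Taf4a-/-. *Hnf4a* per *Foxa1* was 1.21 and 0.872 in WT against 0.249 and 0.337. *Hnf4a* per *Sox17* was 1.51 and 1.15 against 0.143 and 0.181. Each of these ratios was lower in both lines labelled Taf4a-/- than in both WT libraries. With 2 libraries against 2, an exact two-sided permutation test cannot give a p below 0.333, and the ratios are given as values with no test.

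By the distance between centred log2 profiles over the 4 libraries, the closest pair among the 6 tested genes was *Foxa1* and *Foxa3* (0.381), followed by *Foxa1* and *Foxa2* (0.579), and the farthest was *Hnf4a* and *Sox7* (3.12). Among the other 16925 genes, the nearest to *Hnf4a* was *Cd36*, which encodes a fatty acid transporter, with 583 and 659 normalized counts in the WT lines and 62.7 and 49.8 in the lines labelled Taf4a-/- (distance 0.123). *Sphkap* and *Zcchc16* followed at 0.210 and 0.214. The nearest genes were *Adora1* for *Foxa1* (0.0705), *Gm10654* for *Foxa2* (0.0406), *Zbtb8b* for *Foxa3* (0.0202), *Rgl3* for *Sox17* (0.0904) and *Dguok* for *Sox7* (0.0944). These likenesses, over 4 libraries, are descriptions.

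Of other endoderm transcription factors, 23 tested genes in 3 lists, 8 were called lower and 2 higher, with a median of -0.27 in log2 fold change. Of all tested genes 17.3% were called lower and 11.3% higher, shares to be read beside the list counts below. Among 8 factors of early endoderm and mesendoderm, the 3 called genes were all lower. These were *Gata4* (4762 and 6041 normalized counts in the WT lines, 3748 and 3193 in the lines labelled Taf4a-/-, log2 fold change -0.63), *Gata6* (-0.78) and *Hhex* (-0.95). *Gata4* and *Gata6* are the upstream GATA factors of primitive endoderm and heart, and *Hhex* is a homeobox gene of anterior endoderm and liver bud. The other 5 had positive values, from 0.83 for *Lhx1* to 1.98 for *Mixl1*, and none passed the threshold. *Eomes*, a T-box gene of mesendoderm, had 706 and 158 normalized counts in the WT lines and 1225 and 940 in the lines labelled Taf4a-/- (log2 fold change 1.68, adjusted p = 0.0967 from limma). The count of lower genes was 0 without replicate 1 of the lines labelled Taf4a-/-, 1 without WT replicate 2 and 2 without either other library, and without WT replicate 1 there were 4 higher genes.

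Among 8 tested hepatic factors 4 were lower and 0 higher, and the median log2 fold change was -0.93. *Cebpa*, which drives hepatocyte and myeloid genes, fell from 227 and 223 normalized counts in WT to 18.6 and 11.1 (log2 fold change -3.88, adjusted p = 0.00196 from limma). *Onecut1* (Hnf6), a partner of Hnf4a in the liver network, had a log2 fold change of -2.92. *Creb3l3* and *Prox1* completed the 4, with -2.05 and -0.67. *Onecut2* (-1.19, adjusted p = 0.0503) did not pass in limma, nor did *Nr5a2*, at 0.65. *Nr0b2*, which encodes the FXR-induced repressor SHP, had 4 reads in each WT library and 0 in the others. Without WT replicate 2 there was 1 lower gene and 1 higher, and without WT replicate 1 there were 2 lower.

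Among 7 tested gut tube and lung factors, *Nkx2-1*, a lung and thyroid gene, was lower at 83.3 and 35.3 normalized counts in WT against 1.96 and 2.21. *Cdx1*, a gene of hindgut and posterior mesoderm, was higher at 35.2 and 21.0 against 3.51 and 5.20 in WT. The epithelial gene *Elf3* was higher with a log2 fold change of 0.83. *Nkx2-1* reached the minimum mean only through WT, and *Cdx1* only through the lines labelled Taf4a-/-. The direction of these calls was therefore nearly fixed, and both enter the counts of other endoderm transcription factors given above. The count of higher genes was 0 without replicate 1 of the lines labelled Taf4a-/- and 1 without replicate 2 or without WT replicate 2. limma made 0 calls, and voom 0, among 7 close relatives and partners of these factors, including *Sox18* (0.15), the LXR genes *Nr1h2* (0.20) and *Nr1h3* (-0.96), and *Rxra* (-0.55), the gene for the dimer partner of FXR. At an unadjusted p under 0.05, 2 of them were lower. Their 95% intervals ran, for example, from -1.26 to 1.57 for *Sox18* and from -0.98 to -0.13 for *Rxra*.

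**Figure D2:**
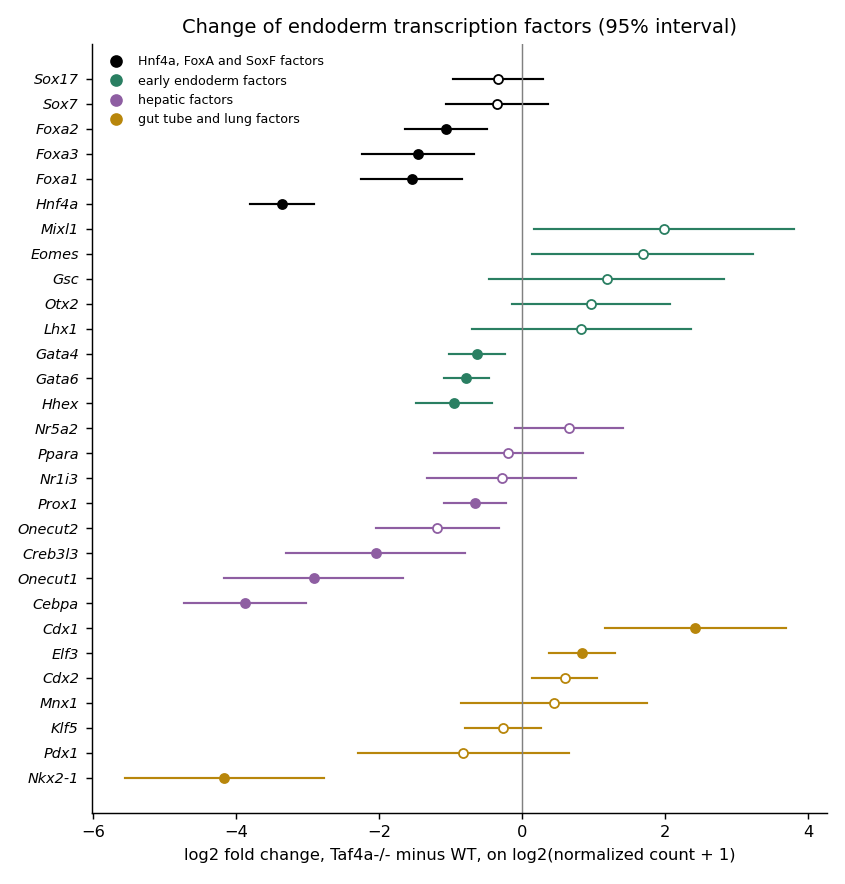
Log2 fold change with its 95% interval for the 6 tested genes and 23 other endoderm transcription factors (lines labelled Taf4a-/- minus WT, on log2(normalized count + 1)), with filled points for genes called at an adjusted p under 0.05. Hnf4a at -3.36, Cebpa at -3.88 and Nkx2-1 at -4.17 are far below the FoxA genes. Sox17 at -0.34 and Sox7 at -0.35 were not called, and their intervals reach down to -0.97 and -1.07.

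Genes that Hnf4a and FoxA proteins are known to activate had larger falls than the factors. Of 13 such genes, which encode secreted plasma proteins such as albumin and apolipoproteins, all 12 tested were lower, and the median log2 fold change was -6.26. *Afp*, the fetal serum protein of yolk sac and liver, had 42655 and 36728 normalized counts in WT against 152 and 140. *Alb* had 799 and 1796 in WT and 0 in both other libraries, at least 830-fold lower against a floor of 3 reads over the genotype. *Ttr*, *Apoa1*, *Apob* and *Fgb* had log2 fold changes of -6.27, -7.46, -6.24 and -6.83. The smallest fall was that of *Rbp4*, the retinol carrier, at -3.97. limma's voom called 11 of the 12, all except *Apoa4* (adjusted p = 0.0521). With any single library left out, the median log2 fold change of the tested genes ran from -6.56 to -5.82. *Alb*, *Apoa4*, *Apoc2* and *Trf* reached the minimum mean only through WT, so a call of lower was nearly fixed for them.

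Relative to their regulators, the 13 genes summed came to 88.4 and 72.8 normalized counts per normalized count of *Hnf4a* in the WT lines, and to 13.8 and 10.7 in the lines labelled Taf4a-/-. Per *Foxa2* the sum was 145 and 117 in WT against 4.02 and 3.97. The genotypes did not overlap in either ratio. The sums were made up differently, so the ratios do not describe an even fall of the 13 genes. In WT the largest part was *Afp*, with 42655 and 36728 normalized counts. In the lines labelled Taf4a-/- it was *Rbp4*, with 991 and 471.

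**Figure D3:**
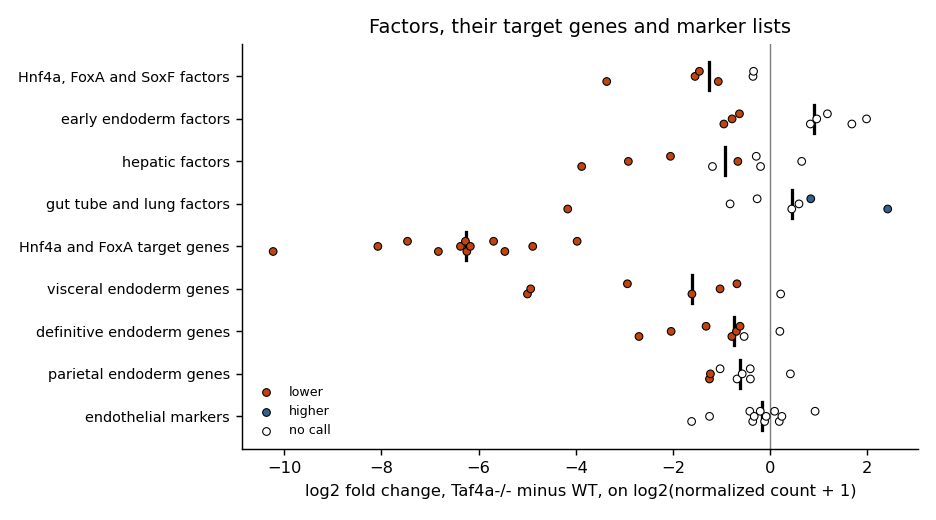
Log2 fold change of each tested gene (points) and its median (vertical bars) for the factors and 8 other lists, with orange for lower, blue for higher and white for genes without a call. The target genes of Hnf4a and FoxA lie between -10.23 and -3.97, all below Hnf4a at -3.36, and the medians of the other lists drawn are closer to 0. The macrophage and cardiomyocyte markers, with medians of -8.12 and -3.39, are not drawn.

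The bile acid genes controlled by FXR were mostly too low to test. Of 10 genes 7 had values, 3 were tested and 0 were called by limma or voom, with 1 at an unadjusted p under 0.05. Without WT replicate 1 there was 1 higher gene, and without replicate 1 of the lines labelled Taf4a-/- 1 lower. The ileal hormone gene *Fgf15* had 558 and 105 normalized counts in the WT lines and 316 and 410 in the lines labelled Taf4a-/-, and the canalicular transporter *Abcb4* had a log2 fold change of -1.95 that did not pass (adjusted p = 0.096 from limma).

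Genes of visceral endoderm outside the target list were lower for 6 of 7, with a median log2 fold change of -1.61. *Cubn* and *Amn*, which form the cubilin receptor of the absorptive surface, were 31.7-fold and 27.9-fold lower by their means. *Lrp2*, the megalin receptor of the same surface, was not called (0.22). Among 8 genes of definitive endoderm, at the cell surface or secreted, 6 were lower, with *Spink3* (-2.70) and *Tmprss2* (-2.04) at the largest falls. The epithelial genes *Cdh1* (-0.62) and *Epcam* (-0.79) were lower by less than 2-fold. *Cxcr4* (0.20) and *Cer1* (-0.54) were not called, and *Cer1* had 151 and 17.7 normalized counts in the WT lines. Of 8 parietal endoderm genes, *Sparc* (-1.23) and *Pth1r* (-1.25) were lower and 6, including *Lama1* (-1.03), were not called. Without WT replicate 2, the counts lower were 3, 2 and 2 for visceral, definitive and parietal endoderm, with 1 parietal gene higher. Without WT replicate 1 they were 3, 5 and 5, without replicate 2 of the lines labelled Taf4a-/- 4, 3 and 1, and without its replicate 1 they were 6, 4 and 2.

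Since *Sox7* and *Sox17* are also endothelial genes and *Foxa2* also marks notochord and floor plate, markers of those tissues were examined. Of 12 endothelial markers 0 were called by limma, 1 was lower by voom, 2 were lower at an unadjusted p under 0.05, and 2 were called lower by limma without replicate 2 of the lines labelled Taf4a-/-. Their median log2 fold change was -0.16, and their summed levels were 17457 and 15376 normalized counts in WT against 12214 and 15540. Of 5 tested notochord and floor plate markers, *Shh* was lower (331 and 153 normalized counts in the WT lines, 47.0 and 50.9 in the lines labelled Taf4a-/-, log2 fold change -2.18, adjusted p = 0.0133 from limma). *T* (Brachyury) was not called (2.46, adjusted p = 0.148), and the defining notochord gene *Noto* had no more than 1 read in any library. Without WT replicate 1 the list had 2 lower genes and 1 higher. The summed level of these 7 markers was 1315 and 760 normalized counts in WT against 1088 and 739. Their part in the values of *Foxa2* was not tested.

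The lines labelled Taf4a-/- differed from each other in opposite ways for the SoxF genes. *Sox7* was 0.541 times as high in replicate 1 as in replicate 2, and *Sox17* was 1.57 times as high. *Foxa1* and *Foxa2* went with *Sox17*, at 1.67 and 1.58 times. In the same pair of libraries 11 of 12 endothelial markers were higher in replicate 2, by a median of 1.02 on the log2 scale, among them *Cdh5* with 992 and 2226 normalized counts and *Tie1* with 466 and 1150. In contrast, 7 of 8 definitive endoderm genes, 7 of 7 visceral endoderm genes and 6 of 8 parietal endoderm genes were higher in replicate 1. The share of all genes higher in either replicate was not counted, so these counts are descriptions. Between the WT lines *Sox7* differed by 0.081 on the log2 scale, while 11 of 12 endothelial markers were higher in WT replicate 1. The part of endothelial cells in the level of *Sox7* was not tested.

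**Figure D4:**
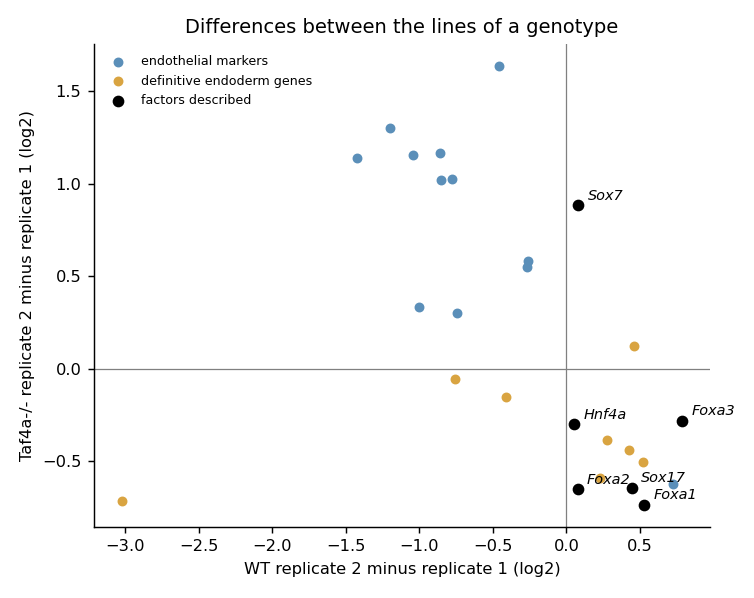
Log2 difference between replicate 2 and replicate 1 in WT (horizontal axis) and in the lines labelled Taf4a-/- (vertical axis) for the 6 tested genes, 12 endothelial markers and 8 definitive endoderm genes. Sox7 lies with the endothelial markers above 0 on the vertical axis, at 0.88, and the other 5 genes lie below 0, but Sox7 does not share the endothelial difference between the WT lines.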

How the data were processed

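The authors aligned reads with TopHat on mm9/NCBI37, counted them per gene with HTSeq, and deposited normalized counts scaled by DESeq. The submitters' processing notes list TopHat 1.3.3, HTSeq 0.5.3p1 and CASAVA 1.8, and the annotation release is not given in the sources used here. All values were whole multiples (within 0.01) of 1 read, so reads were recovered. Testing used limma 3.58.1 (R 4.3.3) for all genes averaging 10 or more (variance trend, 4.17 prior degrees of freedom) on log2(normalized count + 1), a scale that understates changes of low genes. Replicate numbers name lines, and the labels do not say whether they pair lines across genotypes. The main test did not use them as pairs. On simulated data for this comparison with 16942 genes tested, 96.8% of 95 genes changed by 1.5 (log2) and 100% of 105 changed by 3 were recovered, and 2.96% of calls were false. Every simulated gene had the same dispersion, 0.01065, and only those genes were changed. In the data the spread differs between genes and 28.6% of tested genes were called, so these shares need not hold there. Sequences came from RefSeq promoters. Of 130 listed genes 5 had no row and 1 matched by a synonym.

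The genes and lists were chosen with earlier results of these data known. Named were the 8 genes, the 3 genes nearest to each by Euclidean distance between centred log2 profiles (1 for most is printed), in each list the 2 largest falls and 2 largest rises among called genes without overlap, and Gata4, Gata6, Hhex, Prox1, Cebpa, Nr5a2, Sox18, Nr1h2, Nr1h3, Rxra, Alb, Afp, Ttr, Nr0b2 and Taf4a whatever their values. Some listed genes are not reported here. Other genes named were chosen after their values were seen. Exon lengths are unions over the transcripts of GENCODE vM1, and all 24637 identifiers were found there. Depth limits low genes such as Nr1h4, and floors and intervals on reads cover counting error only, since molecules were not marked. Figures used matplotlib 3.10.9. Alternatives were other pseudocounts, filters, scalings and variance models, a replicate block, voom and leaving out each library.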

Additional observations from a re-analysis of the deposited data

How the results depend on the processing

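With no variance trend, or at an adjusted p under 0.01, 1 of the 4 genes called lower remained, and without a trend *Foxa1* (-1.55, adjusted p = 0.0583), *Foxa2* (-1.07, 0.071) and *Foxa3* (-1.46, 0.0575) did not pass; the cause was not tested. Leaving out 1 library at a time gave 1 to 4 genes lower and 0 higher, and log2 fold changes of -3.51 to -3.21 for *Hnf4a*, -1.92 to -1.18 for *Foxa1*, -1.40 to -0.74 for *Foxa2*, -1.85 to -1.06 for *Foxa3*, -0.67 to -0.019 for *Sox17*, -0.80 to 0.088 for *Sox7* and -2.38 to -1.83 for *Nr1h4*, the positive value coming without replicate 1 of the lines labelled Taf4a-/-. The lone library of a genotype was then assumed to vary like the others. *Nr1h4*, at -2.10 with no test, was -2.42 with a pseudocount of 0.5 and -0.69 with 10, and passed with no filter (-2.10, adjusted p = 0.0498 from limma). With the replicate number as a block the 4 genes lower were unchanged in number, *Hnf4a* stayed at -3.36 and no call among these genes changed. Deviations of same-numbered libraries correlated at 0.012 over the tested genes. This does not settle whether the numbers pair the lines. *Eif2s3y* was present in replicate 1 of both genotypes and at 0 in replicate 2. Equal totals, quantile normalization (median of all genes 0.11), both other pseudocounts, a minimum mean of 50 and limma's voom on recovered reads, the last chosen after seeing the data, also called 4 genes lower, and no filter called 5, with *Nr1h4*. Over all genes 2928 were lower and 1906 higher, against 1741 and 856 without a trend, 2448 and 2676 with quantile normalization, and 1453 and 928 without WT replicate 2. The planned edgeR and DESeq2 fits were not run. No alternative could be computed for *Hnf4g*.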
